A study of Mus musculus with 4 samples.

Results

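The 49 genes described here are type I interferon-stimulated genes, which cells switch on when interferon-α or interferon-β reaches them. They were picked by symbol from the 53465 genes of the count table, because genes of this kind had been lower in these same libraries after treatment with EGCG, a catechin of green tea. The direction of their difference between EGCG and control is therefore what chose them. It is described here without a test. Each of the 49 symbols matched a single gene, and all 49 were among the 14682 genes with enough reads to be tested.

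MDSCs, or myeloid-derived suppressor cells, were taken with beads against Gr-1, an epitope of Ly-6G and Ly-6C, from spleens of male BALB/c mice that were 6 weeks old when injected with cells of 4T1, a transplantable mouse mammary carcinoma line. The sorted cells were then kept for 6 h in control medium (control replicates 1 and 2) or in medium with EGCG at 5 μg/mL (EGCG replicates 1 and 2). Every library, controls included, thus came from tumor-bearing mice and from a bead-selected spleen fraction after culture. The labels give day 21 for the tissue, and the study's methods give an earlier day for the sort. Neither source says if separate mice or wells underlie the replicates, or if mice were pooled, so p-values measure only the spread between these samples, which may be technical.

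Type I interferons bind the receptor chains IFNAR1 and IFNAR2, whose kinases JAK1 and TYK2 act on a transcription factor complex called ISGF3. This complex, which holds STAT2 and IRF9, binds the interferon-stimulated response element (ISRE) in the promoters of its target genes. The products sense viral nucleic acid, block translation and viral entry, attach the ubiquitin-like protein ISG15 to other proteins, and feed back on the pathway. In myeloid cells a low constant input of interferon keeps many of these genes expressed without infection.

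The 4 libraries held between 17767318 and 18390385 counts on genes. Over all tested genes, 20 fell and 2 rose with EGCG at an adjusted p under 0.05 (the quasi-likelihood test of edgeR, with p-values adjusted by Benjamini and Hochberg's method). Granulocytic MDSC markers such as S100a8, S100a9 and Ly6g were abundant in every library, with a summed level of 59758 and 71347 CPM (counts scaled to library size) in the control libraries and 80069 and 70758 CPM in the EGCG libraries. Monocytic markers such as Ccr2 and Csf1r summed to 1273 to 1494 CPM in the control libraries and 1139 to 1182 CPM in the EGCG libraries. All 17 of these markers were detected. Every marker of the other cell types described below also had a count, so detection alone does not identify the cells.

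The interferon-stimulated genes were highest in control replicate 2, and for many of them control replicate 1 lay among the EGCG libraries. Of the 49 genes, 44 had their highest level in control replicate 2, against 20.1% of all tested genes. The highest level was in EGCG replicate 2 for 3 genes (26.6%), in control replicate 1 for 2 (29.1%) and in EGCG replicate 1 for 0 (24.2%). Control replicate 1 was lower than control replicate 2 for 46 of 49 genes (49.7% of all tested genes), by a median of 0.38 on the log2 scale and by up to 0.99 for Ifit1. The exceptions were Trim25, Lgals3bp and Phf11d. The lowest level was in EGCG replicate 1 for 34 genes (25.4% of all tested genes), in control replicate 1 for 9 (29.3%), in EGCG replicate 2 for 6 (24.8%) and in control replicate 2 for 0 (20.5%). The summed level of the 49 genes was 4566 CPM in control replicate 1, 5785 CPM in control replicate 2, 4250 CPM in EGCG replicate 1 and 4671 CPM in EGCG replicate 2. On this sum, EGCG replicate 2 lay above control replicate 1, so the groups overlapped.

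With both libraries of each group, 46 of the 49 genes had a log2 fold change of EGCG over control below 0, beside 49.4% of all tested genes. The median was -0.27 (0.0031 over all tested genes), with values from -0.76 for Mx2 to 0.37 for Ifitm2. Both EGCG libraries lay below both control libraries for 19 genes (21.2% of all tested genes lay so), both lay above for Ifitm2 alone (21.5%), and the groups overlapped for 29. The genome-wide test called 2 members lower, Helz2 and Rnf213 (0.136% of all tested genes were called lower), and 0 higher (0.0136%). Both calls were lost with no filter, where 0 of 27490 genes were called in either direction. They were also lost with the length correction, where 1 of 14666 genes was called lower. With that correction the log2 fold changes of Helz2 and Rnf213 were -0.47 and -0.43. These 2 genes have the longest exonic sequence of the 49, at 11529 and 16888 bases. The main edgeR fit gave 24 members below 0 (7.02%) and 1 above (5.22%) with an unadjusted p under 0.05. DESeq2 called 3 lower (0.368%) and 0 higher (0.0954%). None of these counts is read as a result, because this contrast chose the genes. In bulk RNA, fewer cells that express these genes and less RNA per cell cannot be told apart.

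**Figure D1:**
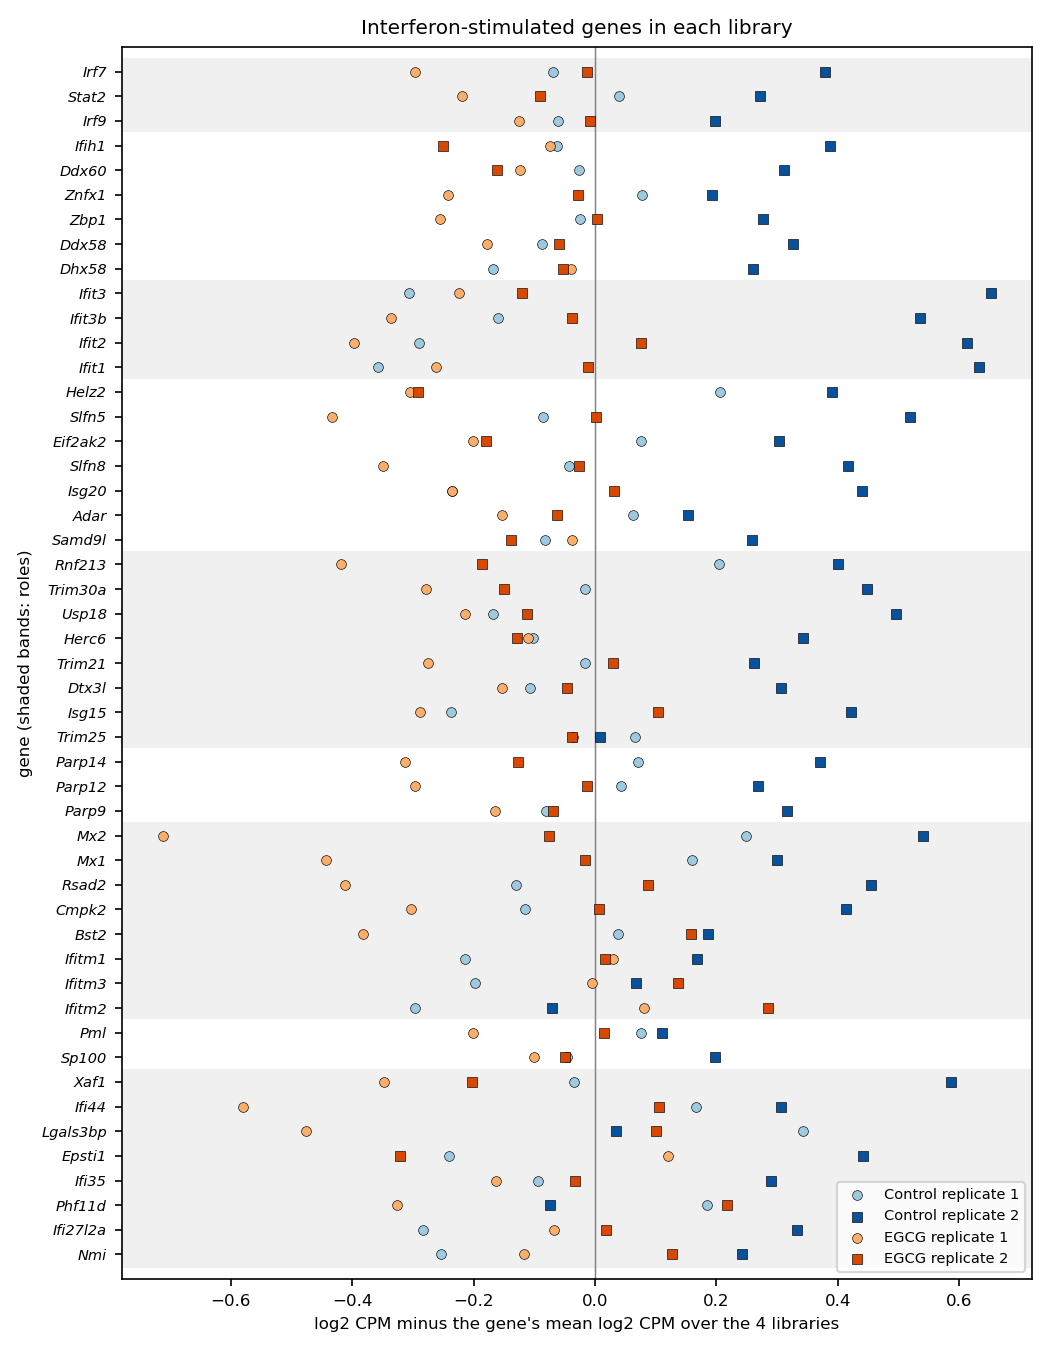
Level of each of the 49 interferon-stimulated genes (y axis, shaded in bands by role) in each library, as the log2 of its CPM minus the gene's mean log2 CPM over the 4 libraries (x axis). Control replicate 2 is the highest point for 44 of the 49 genes, and EGCG replicate 1 is the lowest for 34.

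Promoter sequences are shown because letters that match the binding site of ISGF3 recur among these genes. The letters were not used to choose the genes. The genes were picked as known interferon-stimulated genes, however, so the share with such letters is not independent of that choice. RefSeq promoter windows (GRCm38.p6, 250 bases before to 50 after each gene's start) were present for 41 of the 49 genes. Of these, 8 genes had more than 1 window, and a match in any window was counted for the gene. The windows of Dhx58, Parp9, Usp18, Mx2, Parp14, Zbp1, Mx1 and Ifi27l2a were not used here. The ISRE core, spelled GAAA, then 2 bases of any kind, then GAAA again, was searched on both strands and occurred in 17 of the 41 (41.5%), against 1079 of 27025 genes with a window (3.99%), members included. In the 200 bases upstream of the start alone it was in 11 of 41 (26.8%), against 2.65%. Overlapping matches were each counted. In the stretches upstream of the start that follow, written 5′ to 3′ on the gene's strand, capitals mark the ISRE core or its reverse complement (TTTC, any 2 bases, TTTC). They are Isg15 (chr4:156200819-156200918, minus strand), Ifit1 (chr19:34640739-34640888, plus strand), Ifit3 (chr19:34583279-34583528, plus strand), Ifit3b (chr19:34607707-34607956, plus strand), Ddx60 (chr8:61928027-61928086, plus strand), Ifitm2 (chr7:140955962-140956021, minus strand) and Helz2 (chr2:181242028-181242087, minus strand).
Isg15: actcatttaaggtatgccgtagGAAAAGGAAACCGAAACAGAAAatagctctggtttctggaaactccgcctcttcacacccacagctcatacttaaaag
Ifit1: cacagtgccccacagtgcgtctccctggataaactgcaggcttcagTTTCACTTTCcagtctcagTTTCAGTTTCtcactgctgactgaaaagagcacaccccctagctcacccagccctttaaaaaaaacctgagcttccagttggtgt
Ifit3: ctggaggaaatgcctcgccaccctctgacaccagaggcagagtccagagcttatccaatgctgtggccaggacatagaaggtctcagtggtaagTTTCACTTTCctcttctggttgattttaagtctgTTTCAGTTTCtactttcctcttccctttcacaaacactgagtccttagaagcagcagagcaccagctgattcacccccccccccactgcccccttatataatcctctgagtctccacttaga
Ifit3b: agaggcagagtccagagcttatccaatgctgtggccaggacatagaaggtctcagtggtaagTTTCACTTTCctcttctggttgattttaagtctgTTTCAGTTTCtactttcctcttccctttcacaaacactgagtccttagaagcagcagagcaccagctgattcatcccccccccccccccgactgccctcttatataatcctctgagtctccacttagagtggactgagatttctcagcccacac
Ddx60: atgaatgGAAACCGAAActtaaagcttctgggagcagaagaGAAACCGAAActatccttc
Ifitm2: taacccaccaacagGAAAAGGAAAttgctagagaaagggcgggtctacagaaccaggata
Helz2: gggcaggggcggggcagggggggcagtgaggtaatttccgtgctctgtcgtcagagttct

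Isg15 held 3 cores that overlap one another, with first bases 78, 72 and 66 bases before the start. Ifit1 held a core 104 and another 85 bases before its start, both in the opposite orientation. Ifit3 and Ifit3b held the same pair of cores, at 156 and 122 bases before the start in Ifit3 and at 188 and 154 bases in Ifit3b. Ddx60 held the core GAAACCGAAA at 53 and again at 19 bases before its start. Ifitm2, the member higher with EGCG in both libraries, held a core 46 bases before its start. Helz2, a member called in the genome-wide test, held no such letters in the window, and the 60 bases before its start are printed for that comparison. The window of Rnf213 held none either, but it is placed on a RefSeq start 3001 bases upstream of the gene model used for lengths and positions. Some other windows are placed on RefSeq starts well inside the gene model. Among them are the window of Slfn5, which held a core, and those of Ifitm1 and Irf9, which held none. A further window of Trim30a and of Znfx1 also lies far inside. The counts of genes with a core rest on these starts.

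By role, a core was in the window of 3 of 4 IFIT genes, 3 of 4 nucleic acid sensors with a window, 4 of 6 membrane and dynamin-like effectors, 3 of 7 genes of the ISG15 and ubiquitin system, 3 of 7 RNA-acting enzymes and 1 of 3 transcription factors. None of the 7 other induced genes with a window, the 2 nuclear body genes or the single PARP gene held one. The longer element, which is the core followed by CT, was in a window of 9 of 41 genes (22%) against 0.303% of all genes. The gamma-activated site TTCNNNGAA is known from genes that respond to interferon-γ. It was in a window of 7 of 41 genes (17.1%) against 9.55% of all genes. A match is a description of letters and was not tested as a site.

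The first group of members forms the transcription factor itself. Irf9, the DNA-binding part of ISGF3, had 128 CPM in control replicate 1 and 154 CPM in control replicate 2, and 123 CPM in EGCG replicate 1 and 133 CPM in EGCG replicate 2. EGCG replicate 2 lay between the controls and EGCG replicate 1 just below them, and the log2 fold change was -0.14 (SE 0.09), where SE is the standard error of the fit. Irf7, a regulator that is itself induced by ISGF3 and that amplifies the expression of interferon-α genes, had 152 and 207 CPM in the control libraries and 129.8 and 158 CPM in the EGCG libraries. Only EGCG replicate 1 lay below both controls, and the fold change on the log2 scale was -0.32 (SE 0.12). Stat2, which brings the transactivating part of ISGF3, differed in both libraries in the same direction, at a group mean of 67.7 ± 7.69 CPM (SD, n = 2) in control and 54.5 ± 3.45 CPM in EGCG. Across the 3 genes the median log2 fold change was -0.31, which became -0.08 without control replicate 2.

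The 6 nucleic acid sensors all had a negative fold change, with a median of -0.26, or -0.09 without control replicate 2. Ddx58, which encodes the RNA sensor RIG-I, had 133 CPM in control replicate 1 and 177 CPM in control replicate 2, and 124 CPM in EGCG replicate 1 and 135 CPM in EGCG replicate 2. Its EGCG libraries stood close to control replicate 1 and well under control replicate 2 (log2 fold change -0.25). Ifih1, which encodes the long double-stranded RNA sensor MDA5, had 45.4 and 62.0 CPM in the control libraries and 45.0 and 39.9 CPM in the EGCG libraries. Both EGCG values were under both control values, though EGCG replicate 1 and control replicate 1 were nearly equal, and the log2 fold change was -0.34 (SE 0.12). Znfx1, a helicase that binds viral RNA at mitochondria, had 147 and 159 CPM in the control libraries and 118 and 137 CPM in the EGCG libraries. Its groups did not overlap, and its log2 fold change was -0.27 (SE 0.09). Ddx60, a helicase of the antiviral response, also had both EGCG libraries below both controls (-0.29), whereas Zbp1, a sensor of left-handed nucleic acid, and Dhx58, which encodes the RIG-I relative LGP2, had overlapping groups.

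The IFIT genes, whose products bind viral RNA and hold back its translation, showed the widest gap between the control libraries. They lie side by side at chr19:34550694-34650009 (GRCm38). Ifit1, which recognizes RNA without a host cap, had 65.1 CPM in control replicate 1 and 129 CPM in control replicate 2, and 69.6 CPM in EGCG replicate 1 and 82.8 CPM in EGCG replicate 2. Control replicate 1 was the lowest of the 4 libraries and both EGCG libraries lay between the controls. The log2 fold change of Ifit1 was -0.35 (SE 0.21), which turned to 0.23 when control replicate 2 was left out and became -0.76 when control replicate 1 was. Ifit3, a partner of IFIT1 in RNA binding, had 21.2 and 41.3 CPM in the control libraries and 22.5 and 24.2 CPM in the EGCG libraries, in the same order. Ifit3b, a close copy of Ifit3, had 41.8 and 67.7 CPM in the control libraries and 37.01 and 45.5 CPM in the EGCG libraries, with only EGCG replicate 1 below both controls. The copies share much sequence (61.8% of the 31-base words of Ifit3 transcripts occur in other genes, and 55.3% of those of Ifit3b), so how their reads were divided is uncertain. The median of the 4 IFIT genes was -0.39 with all libraries, 0.14 without control replicate 2 and -0.75 without control replicate 1, so the direction of the family turned on control replicate 2. The median log2 ratio of control replicate 2 to control replicate 1 was 0.93.

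Among the 7 RNA-acting enzymes and helicases, Helz2, Eif2ak2 and Adar differed between the groups by more than the controls differed from each other. Helz2 encodes a helicase that works as a coactivator of nuclear receptors. It had 161 and 183 CPM in control replicates 1 and 2, and 113 and 114 CPM in EGCG replicates 1 and 2. The group means were 172 ± 15.5 CPM in control and 113 ± 0.811 CPM in EGCG (SD, n = 2 each), and even the lower control library lay above both EGCG libraries. The log2 fold change was -0.60 (SE 0.08), and it was -0.50 without control replicate 2. Samd9l, an antiproliferative factor that restrains translation, was the most abundant member of this role in CPM, with 358 and 453 CPM in the control libraries and 369 and 344 CPM in the EGCG libraries. Its groups overlapped, and the log2 fold change was -0.19. Slfn5, a Schlafen protein that acts in the nucleus, had 169.8 and 258 CPM in the control libraries and 133 and 180.4 CPM in the EGCG libraries, and control replicate 1 lay below EGCG replicate 2 (-0.45).

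Eif2ak2, which encodes the kinase PKR that halts translation upon sensing double-stranded RNA, and Adar, which edits adenosines in double-stranded RNA, each had both EGCG libraries below both controls, with log2 fold changes of -0.38 and -0.22. Of the exonic bases of Adar, 16.8% overlap the opposite-strand gene Chrnb2, and the counting ignored strand. Isg20, an exonuclease of RNA, had both EGCG libraries between the controls, and Slfn8 had 1 of them between. The role had a median of -0.38, or -0.13 without control replicate 2, and Helz2 had the lowest value of the 7.

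The 8 genes of the ISG15 and ubiquitin system all had fold changes below 0, with a median of -0.25, or -0.06 without control replicate 2. Rnf213 (ENSMUSG00000070327, chr11:119393100-119487418), a very large E3 ligase with an ATPase core, had 270.2 CPM in control replicate 1 and 309.5 CPM in control replicate 2, and 175 CPM in EGCG replicate 1 and 206 CPM in EGCG replicate 2. The means were 289.8 ± 27.8 CPM in control and 191 ± 21.8 CPM in EGCG (SD, n = 2 each), with a clear gap between the groups and a log2 fold change of -0.60 (SE 0.09). It was -0.50 without control replicate 2. Of its exonic bases, 8.74% overlap an opposite-strand gene, A930037H05Rik. Isg15, the ubiquitin-like modifier itself, had 40.7 CPM in control replicate 1 and 64.2 CPM in control replicate 2, and 39.3 CPM in EGCG replicate 1 and 51.6 CPM in EGCG replicate 2. EGCG replicate 2 was above control replicate 1 here, so the groups overlapped, and the log2 fold change was -0.21 (SE 0.17), or 0.16 without control replicate 2. Trim25, an E3 ligase that promotes RIG-I signaling, had 292 and 281 CPM in the control libraries and 272 and 272 CPM in the EGCG libraries, with no overlap but the smallest difference in this role (-0.07).

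Usp18, which removes ISG15 from proteins and shields the interferon receptor from JAK1, had an overlap between the groups (-0.36, and 0.01 without control replicate 2). Trim30a, a regulator of innate signaling, had both EGCG libraries below both controls (-0.45), as had Herc6, the mouse ligase for ISG15 (-0.26). Trim21, a cytosolic receptor of antibodies, and Dtx3l, the partner of PARP9, had overlapping groups.

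The 3 PARP genes, which encode enzymes or relatives that modify proteins with ADP-ribose, had a median of -0.31, or -0.19 without control replicate 2. Parp14, the largest of these proteins, had 202 CPM in control replicate 1 and 249 CPM in control replicate 2, and 155 CPM in EGCG replicate 1 and 176 CPM in EGCG replicate 2. Both EGCG libraries were lower than either control, and the log2 fold change was -0.45 (SE 0.10), or -0.29 without control replicate 2. Parp9, which acts with DTX3L at damaged DNA, had 77.3 and 102 CPM in the control libraries and 72.9 and 77.9 CPM in the EGCG libraries. There EGCG replicate 2 and control replicate 1 were nearly level (-0.25). Parp12, which inhibits translation of viral RNA, had groups that did not overlap (-0.31). Parp9 and Dtx3l lie on opposite strands and overlap over 458 exonic bases, which makes part of their counts uncertain.

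The membrane and dynamin-like effectors were the only role with members above 0, and these were the 3 IFITM genes. Their products sit in endosomal and surface membranes and hinder virus entry. Ifitm3 had the highest length-scaled level of all 49 genes (551 RPKM, counts scaled to exonic length and to library size), followed by Ifitm1 (328) and Ifitm2 (257), while the median member had 17.1 RPKM and the median tested gene 4.06 RPKM. In CPM, Ifitm2 had 136 CPM in control replicate 1 and 159 CPM in control replicate 2, and 176 CPM in EGCG replicate 1 and 203 CPM in EGCG replicate 2. Both EGCG libraries lay above both controls, with a log2 fold change of 0.37 (SE 0.09). Ifitm3 had 325 and 390.2 CPM in the control libraries and 371 and 409 CPM in the EGCG libraries, and Ifitm1 had 308 and 401 CPM in the control libraries and 365 and 361 CPM in the EGCG libraries. Both had overlapping groups, with log2 fold changes of 0.13 (SE 0.09) and 0.03 (SE 0.10), and the sign of Ifitm1 changed under other settings. Of the exonic bases of Ifitm2, 40.9% overlap Gm45717 on the same strand, and 55.5% of its 31-base words occur in other genes, so its count is uncertain.

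In the same role, Mx2, a dynamin-like GTPase, had the lowest fold change of the 49 genes but few reads. It had 5.26 and 6.43 CPM in the control libraries and 2.70 and 4.20 CPM in the EGCG libraries, with no overlap between the groups and a log2 fold change of -0.76 (SE 0.23). Its neighbour Mx1 also had both EGCG libraries below both controls (-0.45). Rsad2, which encodes the radical enzyme viperin, and Cmpk2, a nucleotide kinase beside it on chromosome 12, had overlapping groups and similar fold changes (-0.33 and -0.31). Bst2, which encodes tetherin, a protein that holds budding virus at the cell surface, had EGCG replicate 2 between the controls (-0.20). The median of the 8 genes was -0.26, or -0.02 without control replicate 2.

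Both nuclear body genes had small differences without overlap between the groups. Sp100, a component of PML bodies, had 221 and 261 CPM in the control libraries and 212 and 220.3 CPM in the EGCG libraries, in which control replicate 1 and EGCG replicate 2 were almost equal. Pml, which builds these bodies, had 26.1 and 26.8 CPM in the control libraries and 21.6 and 25.03 CPM in the EGCG libraries. The log2 fold changes were -0.16 (SE 0.09) and -0.18 (SE 0.11), and the median of these genes was -0.17, or -0.09 without control replicate 2, where Sp100 had -0.03.

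The 8 other induced genes had a median of -0.21, or -0.11 without control replicate 2. Xaf1, a proapoptotic protein that binds XIAP, had 13.6 and 20.99 CPM in the control libraries and 10.98 and 12.2 CPM in the EGCG libraries. All EGCG values were below all control values, yet control replicate 1 stood nearer to them than to control replicate 2, and the log2 fold change was -0.58 (SE 0.17). Ifi27l2a, a small membrane protein strongly induced by interferon, had 45.1 and 69.2 CPM in the control libraries and 52.5 and 55.6 CPM in the EGCG libraries, with both EGCG libraries between the controls and a fold change of -0.08 (SE 0.14) on the log2 scale. Nmi, which binds STAT and MYC proteins, had 31.9 and 44.9 CPM in the control libraries and 35.02 and 41.5 CPM in the EGCG libraries. The difference on the log2 scale was -0.0052 (SE 0.14), and the sign of Nmi also changed under other settings. Ifi44 (-0.44) had no overlap between the groups. Ifi35, Lgals3bp, Epsti1 and Phf11d did overlap, and Phf11d was the lowest gene of the 49 per length (0.358 RPKM).

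Leaving out single libraries moved the list as a whole. Leaving out control replicate 2 left 35 of 49 genes below 0 (49.3% of all tested genes in that fit) with a median of -0.08. Leaving out control replicate 1 left 46 below 0 (48.3%) with a median of -0.45. Without EGCG replicate 1, 43 were below 0 (50.6%) with a median of -0.17, and without EGCG replicate 2, 46 were (51%) with a median of -0.39. The members called lower numbered 23 without control replicate 1 (0.472% of all tested genes), 2 without control replicate 2 (1.53%), 2 without EGCG replicate 1 (0.588%) and 18 without EGCG replicate 2 (1.3%), where the lone sample is assumed to vary like the other group. Ifitm2 was called higher without control replicate 2 (0.777% of all tested genes) and without EGCG replicate 1 (0.183%), and 0 members were called higher without control replicate 1 (0.0328%) or without EGCG replicate 2 (0.346%). Across the 4 fits, 35 of 49 genes kept the direction of their fold change. The other 14 were Dhx58, Ifit1, Ifit2, Ifit3, Isg20, Isg15, Usp18, Dtx3l, Ifitm1, Bst2, Nmi, Ifi27l2a, Epsti1 and Phf11d.

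**Figure D2:**
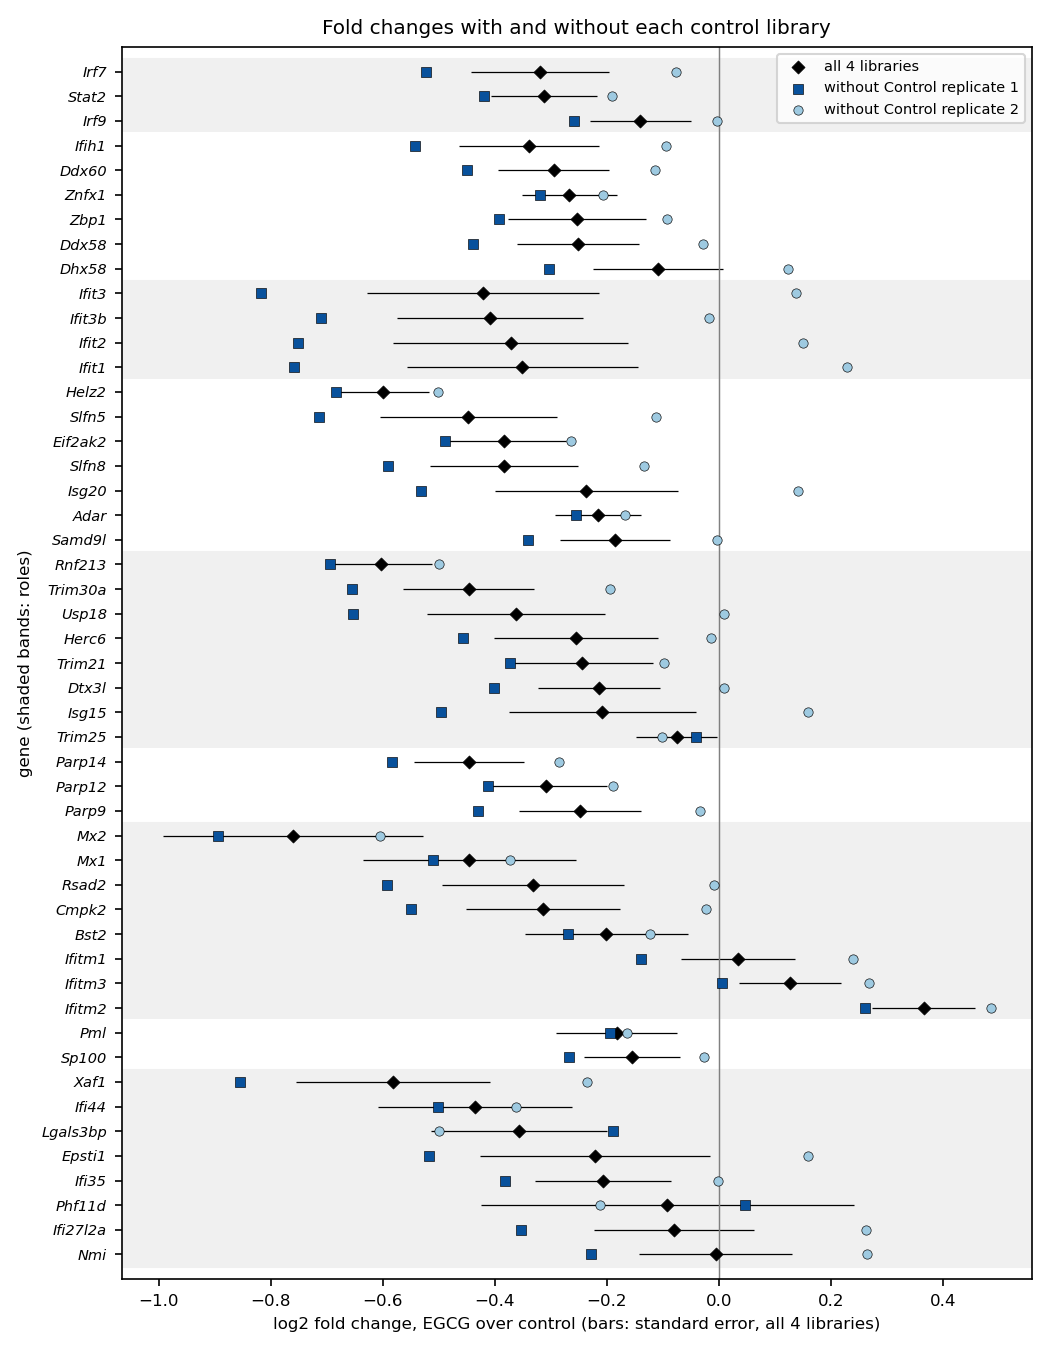
Log2 fold change of EGCG over control (x axis) for each of the 49 genes (y axis, in bands by role) with all 4 libraries (diamonds, with the standard error as a bar), without control replicate 1 (squares) and without control replicate 2 (circles). The IFIT genes spread widest, with a median of -0.75 for the squares and 0.14 for the circles, while Helz2 and Rnf213 stay below 0 in all 3.

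Between single libraries, 38 of the 49 genes were lower in EGCG replicate 1 than in control replicate 1 (50.1% of all tested genes), with a median log2 ratio of -0.18. Only 22 were lower in EGCG replicate 2 than in control replicate 1 (49.7%), with a median of 0.03. Against control replicate 2, 48 were lower in EGCG replicate 1 (50%) and 45 in EGCG replicate 2 (49.3%), with medians of -0.51 and -0.37. EGCG replicate 2 exceeded EGCG replicate 1 for 41 genes (51.3%), by a median of 0.19. Replicate 2 was above replicate 1 in both groups for 39 of 49 genes (26% of all tested genes). The 2 groups thus each had a higher and a lower library for these genes. The log2 ratio within the control group and that within the EGCG group share no library, and across the 49 genes their Spearman rho was -0.0739 (0.022 over 14679 tested genes). The genes with the widest gap between the controls were therefore not ranked the same way within the EGCG group.

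**Figure D3:**
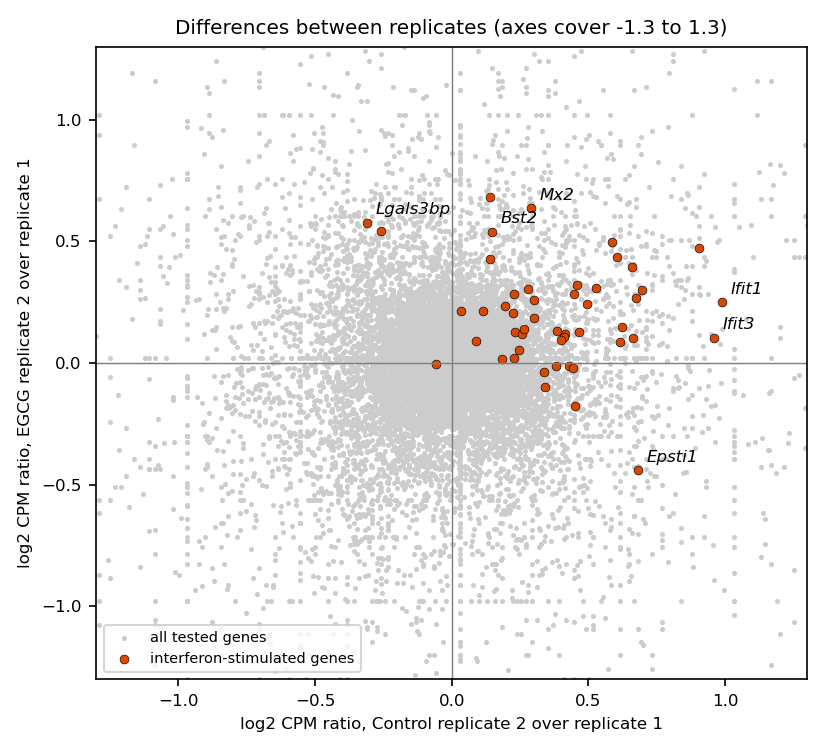
Log2 ratio of control replicate 2 to control replicate 1 (x axis) against that of EGCG replicate 2 to EGCG replicate 1 (y axis) for all tested genes (grey) and the 49 interferon-stimulated genes (orange), where grey genes beyond the axes are not drawn. Both ratios are above 0 for 39 of the 49 genes (26% of all tested genes), and Ifit1 lies farthest to the right, at 0.99.

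The members fell into sets by how the EGCG libraries sat relative to the controls. The 19 genes with both EGCG libraries below both controls were Stat2, Ifih1, Ddx60, Znfx1, Eif2ak2, Adar, Helz2, Herc6, Trim25, Trim30a, Rnf213, Parp12, Parp14, Mx1, Mx2, Sp100, Pml, Ifi44 and Xaf1. They had a median exonic length of 6129 bases and a median log2 ratio between the controls of 0.23. The 21 genes with 1 EGCG library between the controls and 1 outside had a median length of 3776 bases and a median ratio between the controls of 0.41. The 7 genes with both EGCG libraries between the controls (Dhx58, Ifit1, Ifit3, Isg20, Ifitm1, Nmi and Ifi27l2a) had a median exonic length of 1860 bases and a median log2 ratio between the controls of 0.62. That ratio follows in part from the split itself, since EGCG libraries can lie between the controls only where the controls are apart. The remaining members were Ifitm2, above both controls in both EGCG libraries, and Phf11d, with 1 EGCG library above and 1 below both controls. These lengths are given because fold changes in these libraries were related to exonic length.

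Across all tested genes with a length, the Spearman rho of log2 fold change with exonic length was -0.286 (n = 14666), and across the 49 genes it was -0.336. Of 9 members under 2 kb of exon, 6 were below 0 and the 3 above were the IFITM genes, with a median of -0.20 (0.09 over all tested genes of that length). All 21 members of 2 to 5 kb were below 0 (median -0.33, against 0.03), and so were all 19 members of 5 kb or longer (median -0.27, against -0.06). Among all tested genes, 1267 of 3543 under 2 kb and 2501 of 5813 of 2 to 5 kb were below 0. At 5 kb or longer, 3481 of 5310 were. With each library's trend of counts on length removed, 47 of 49 members were below 0 (42.8% of all tested genes), with a median of -0.25 (0.03 over all tested genes), and rho over the members was -0.0736. Helz2 then had -0.47, Rnf213 -0.43 and Ifitm2 0.30. In that fit 0 members were called lower by edgeR (0.00682% of all tested genes were), while before adjustment 19 were lower (4.45%) and 1 was higher (6.08%) at p under 0.05.

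**Figure D4:**
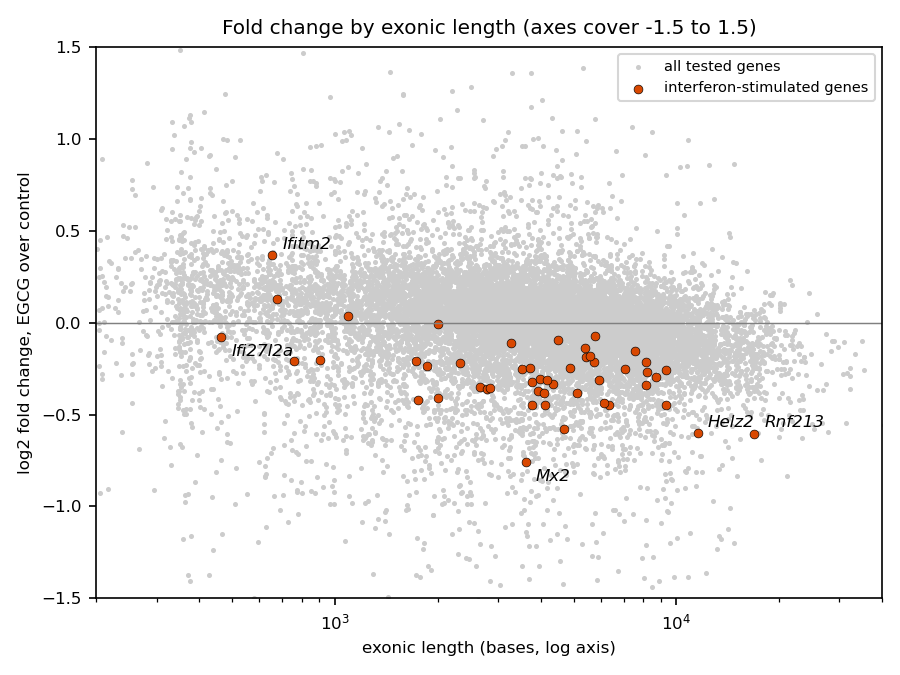
Log2 fold change of EGCG over control (y axis) against exonic length in bases (x axis, log scale) for all tested genes (grey) and the 49 interferon-stimulated genes (orange), where grey genes beyond the axes are not drawn. The 3 IFITM genes are short and above 0, and the other 46 members lie below 0.

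Genes of the pathway outside the 49 were drawn from 10 lists, which hold 184 genes, of which 146 were tested. These lists were put together with earlier results of these libraries known. Of the 146 genes, 110 had a log2 fold change below 0 (49.4% of all tested genes did), with a median of -0.11. Without control replicate 2 these were 84 with a median of -0.04, without control replicate 1 they were 118 with a median of -0.14, without EGCG replicate 1 they were 91 with a median of -0.06, and without EGCG replicate 2 they were 116 with a median of -0.14. After adjustment over all 14682 genes, edgeR called 2 lower (0.136% of all tested genes) and 0 higher (0.0136%). Before adjustment 32 were lower (7.02%) and 0 were higher (5.22%) at p under 0.05, and DESeq2 called 4 lower (0.368%) and 0 higher (0.0954%). The same shares over all tested genes hold for the counts of each list that follow. Both genes called by edgeR were of the OAS family, whose enzymes make the second messenger that activates RNase L, or are relatives of them.

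The interferons themselves were at the limit of detection. Of 20 genes of type I and type III interferons, 0 were tested, and all held 18 counts in the 4 libraries together, with at most 5 in a library. Control replicate 2 had 10 of these counts, control replicate 1 had 5, EGCG replicate 1 had 0 and EGCG replicate 2 had 3. For Ifnb1, the gene of interferon-β, there was 1 count in control replicate 1 and 3 in control replicate 2, with 0 in both EGCG libraries. With so few counts no difference was detectable at this depth, and near-identical interferon-α genes can share reads.

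The receptor and its kinases were close to level between the groups. Ifnar1 had 186 and 185 CPM in the control libraries and 176 and 191 CPM in the EGCG libraries, and Ifnar2 had 216 and 216 CPM in the control libraries and 223 and 232 CPM in the EGCG libraries, with log2 fold changes of -0.01 and 0.07. Jak1 and Tyk2 had -0.0067 and -0.13. In this list of 5 genes, edgeR and DESeq2 each called 0, and 0 had an unadjusted p under 0.05.

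Irf3, the factor that starts interferon-β expression after sensing, had a log2 fold change of 0.07 (SE 0.08). Irf5, which acts downstream of Toll-like receptors, had -0.11 (SE 0.09), and Irf8, a regulator of monocyte and dendritic cell fate, had 0.02 (SE 0.08). Of 6 tested IRF genes outside the members, 2 were lower and 0 were called by either tool, with 0 at an unadjusted p under 0.05. Among 17 tested genes of sensing upstream of interferon, 12 were lower with a median of -0.04, 0 were called by either tool and 4 had an unadjusted p under 0.05, all lower. Of 12 negative regulators, 6 were lower with a median of -0.0038, and 0 were called by either tool or had an unadjusted p under 0.05. Socs1, which inhibits JAK kinases, had -0.06 (SE 0.10).

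In the OAS family, 9 of 9 tested genes had a log2 fold change below 0 (49.4% of all tested genes did), of which 2 passed the test. The median was -0.34. Leaving out control replicate 2 gave -0.18 and leaving out EGCG replicate 1 gave -0.22, with 9 of 9 genes below 0 in each of these fits. Oas2 had 92.3 CPM in control replicate 1 and 102 CPM in control replicate 2, and 69.1 CPM in EGCG replicate 1 and 70.4 CPM in EGCG replicate 2. Both EGCG libraries were below both controls and the controls differed little. Oas2 (ENSMUSG00000032690, chr5:120730333-120749853) fell by 0.48 on the log2 scale (SE 0.08), and its edgeR adjusted p was 0.0390, which ran from 0.00269 to 0.562 over other filters, scalings, tests and corrections. Oasl2, a relative that carries ubiquitin-like domains, had 66.98 CPM in control replicate 1 and 81.98 CPM in control replicate 2, and 51.8 CPM in EGCG replicate 1 and 48.6 CPM in EGCG replicate 2. Its groups did not overlap either. Oasl2 (ENSMUSG00000029561, chr5:114896936-114912234) fell by 0.57 (SE 0.10), and its edgeR adjusted p was 0.0420, which ran from 0.00245 to 0.562 over the same alternatives. DESeq2 called the same 2 genes of this family, and left-out libraries changed neither call.

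Guanylate-binding proteins and immunity-related GTPases, which respond to interferon-γ as well, were lower in 15 of 16 tested genes with a median of -0.29, but in 9 of 16 with a median of -0.03 without control replicate 2. Of these genes 0 were called by edgeR or DESeq2, with 4 at an unadjusted p under 0.05, all lower. MHC class I processing genes were lower in 10 of 15 with a median of -0.02, with 0 called by either tool and 2 at an unadjusted p under 0.05. Of 63 other interferon-stimulated genes tested, 51 were lower with a median of -0.12. There edgeR called 0, with 15 lower at an unadjusted p under 0.05, and DESeq2 called 2 lower, Trim30b and Slfn4. Of the interferon-γ list, the receptor genes Ifngr1 (0.06) and Ifngr2 (0.08) and the receptor's kinase gene Jak2 (-0.21) were tested, and Ifng was not. Neither tool called any of these 3 (0 of 3), and only Jak2 had an unadjusted p under 0.05. The medians of the receptor, interferon-γ, IRF, sensing, negative regulator and MHC class I lists each changed sign when some library was left out, within -0.11 to 0.08, and that of the 63 other genes stayed between -0.21 and -0.07.

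**Figure D5:**
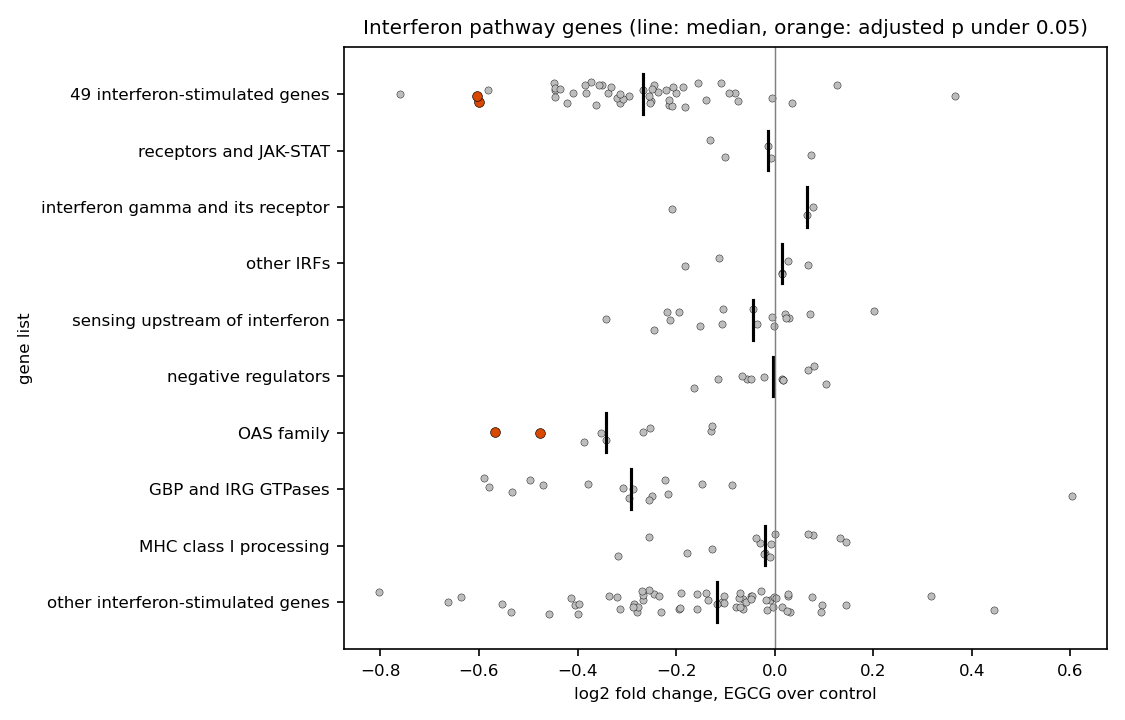
Log2 fold change of EGCG over control (x axis) for the tested genes of the 49 members and of each other interferon pathway list (y axis), with a black line at each list's median and genes with an adjusted p under 0.05 in orange. The medians lie at -0.34 for the OAS family, -0.29 for the GTPases and -0.27 for the members, and between -0.12 and 0.06 for the other lists.

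Markers of other cells that a spleen sample could hold were low, and some moved with the groups. The 9 markers of red pulp macrophages summed to 398 and 393 CPM in the control libraries and 310.1 and 330.3 CPM in the EGCG libraries, and the 6 endothelial markers to 119 and 129.7 CPM against 96.8 and 102 CPM. The summed level of the monocytic markers was also lower in EGCG, mostly through Fn1 and Csf1r, whereas the counts of Ccr2 and Ly6c2 overlapped between the groups. Plasmacytoid dendritic cells, which make much interferon-α, had marker sums of 14.9 and 16.5 CPM in control and 19.6 and 18.9 CPM in EGCG, and the conventional dendritic cell sums were 99.4 to 118 CPM over the libraries. B cell markers summed to 366 to 415 CPM, NK cell markers to 6.67 to 8.26 CPM, erythroid markers to 147 to 200 CPM, and basophil or mast cell markers to 173 to 199 CPM. T cell markers summed to 97.9 and 109 CPM in control and 111 and 116 CPM in EGCG, and platelet markers to 38.6 and 43.6 CPM against 35.4 and 34.1 CPM. Every marker had a count in at least 1 library, and Cd209d of the plasmacytoid dendritic cells had 3 or fewer in each. The granulocytic, plasmacytoid, B, T, NK, endothelial, erythroid, basophil and platelet sums were higher in control replicate 2 than in control replicate 1, as were the interferon-stimulated genes. The monocytic and conventional dendritic cell sums were lower there, and the macrophage sums were nearly level. Single markers did not all follow their sum. Among plasmacytoid markers, Ly6d rose from 129 counts in control replicate 1 to 152 in control replicate 2. Siglech (35 and 23) and Cox6a2 (17 and 9) were lower there, and the other plasmacytoid markers were higher. Among endothelial markers, Pecam1 rose from 1826 to 1984 counts. Cdh5 (126 and 114) and Stab2 (92 and 69) were lower, and the other endothelial markers were higher. The part of these cells in the difference was not tested.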

How the data were processed

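RNA from 4 libraries of cultured MDSCs was analysed (2 control, 2 EGCG, grouped by their labels). Reads were mapped by the authors with STAR 2.6.0c (GRCm38) and counted without regard to strand with featureCounts 1.6.2 on Ensembl release 91, and the deposited table holds whole-number counts that were not normalized (tool versions per the submitters' processing notes). The 49 genes and all gene lists were chosen with earlier results of these data known.

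The deposited counts were filtered with filterByExpr (minimum count 10), scaled by TMM and fitted in edgeR 4.0.16 (quasi-likelihood, no block), with p-values adjusted over all 14682 genes. DESeq2 1.42.0 was an alternative. Fits were first tested on simulated data. CPM use TMM library sizes, and RPKM divide by exonic lengths of GENCODE M21. The length correction subtracts each library's loess trend (span 0.4) of log counts on log length. Shared sequence is the share of a gene's 31-base transcript words found in other genes. Values in every library are given for members called by the test, the 2 highest per length and the largest fold change in each role, and any member higher with EGCG. Of the other pathway genes these are the genes called and others fixed by symbol, of which the result of 1 gene is not reported here. Alternatives were other filters, scalings, tests, a length correction, a replicate block and leaving out each library. Motifs were also searched in the 200 upstream bases only and on the gene's strand only. Tools were R 4.3.3, Python 3.11.15, pandas 2.3.3, NumPy 2.4.6 and matplotlib 3.10.9. The microarray, qRT-PCR and read data were not used here.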

Additional observations from a re-analysis of the deposited data

How the results depend on the processing

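Of the 49 genes, 47 kept the direction of their fold change over 11 filters, scalings, tests and corrections (not Ifitm1 and Nmi), and 35 kept it with each library left out. The cause of the following shifts was not tested. Genes lower with EGCG numbered 20, and 0 with no filter (1018 at an unadjusted p under 0.05), 135 with library size only, 9 with upper-quartile scaling, 49 with the robust fit, 54 with DESeq2, 1 with the length correction and 72 to 235 with a library left out. Genes higher numbered 2, and 0 with no filter (777 unadjusted), 1 with at least 1 CPM in 2 libraries, 16 with library size only, 14 with the robust fit or DESeq2, 6 with the newer quasi-likelihood form and 5 to 119 with a library left out. Members called lower numbered 2, and 0 with no filter (15 unadjusted) or the length correction (19 unadjusted), 4 with library size only (Helz2, Rnf213, Trim30a and Parp14) and 2 to 23 with a library left out. Other pathway genes called lower numbered 2, and 0 with no filter (25 unadjusted), upper-quartile scaling (32) or the length correction (28), 9 with library size only, 4 with DESeq2 and 3 to 16 with a library left out (16 without control replicate 1, 11 without EGCG replicate 2, 6 without EGCG replicate 1). The labels and methods name no pairing by replicate number, so the main fit had no block. The correlation of replicate 1 deviations between the groups was 0.02 over 14682 genes. This value cannot tell whether replicates of the same number share a source. The replicate block is given only here, with 4 members called lower and 24 genes lower and 6 higher in all. With both the block and the length correction, 1 member, 0 other pathway genes and 3 genes in all were called lower. Oas2 and Oasl2 missed the threshold with no filter, upper-quartile scaling and the length correction with or without the block. The ISRE core was found for 22% of the 41 genes on the gene's strand only, as was the longer element on both strands. With 2 libraries per group, the members' median log2 gap between the controls (0.38) was larger than the size of their median fold change (-0.27).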

Other observations

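The gap between the control libraries was also seen in other interferon-related lists, though not to the same extent in each. Control replicate 2 exceeded control replicate 1 for 8 of 9 tested OAS genes, 14 of 16 guanylate-binding and immunity-related GTPases, 13 of 15 MHC class I processing genes and 48 of 63 other interferon-stimulated genes. It did so for 2 of 5 receptor and JAK-STAT genes, 9 of 17 genes of sensing upstream of interferon, 7 of 12 negative regulators, 4 of 6 other IRF genes and 2 of 3 genes of the interferon-γ list, against 49.7% of all tested genes. No cause of the gap was tested.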
